A study of Mus musculus with 19 samples.

Results

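The interleukin-1 (IL-1) family was followed in mammary luminal cells (LCs) through 9 genes: Il33, Il1a, Il1b, Il1rn, Il18, Il1r1, Il1r2, Il1rap and Il1rl1. They were found by gene name among the 37296 names on the array, and the set was selected on the measured Il33 signal, which was much lower in mice given progesterone. The array carries 19 probes for them, of which 14 were well above background on at least 4 arrays. That left 8 of the 9 genes among the 20804 genes tested, and Il1a, the ninth, was well above background on none of the 19 arrays.

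LCs were sorted as CD24+CD29lo cells, after exclusion of CD31+ and CD45+ cells, from ovariectomized C57Bl/6N females, and the RNA of each mouse was hybridized to 1 single-colour Agilent array. C451A-ERα mice carry a germline point mutation at the palmitoylation site through which a fraction of the estrogen receptor ERα is held at the plasma membrane, so every cell type of these mice bears it. All mice were ovariectomized, at 24 days of age in the labels, and received 10 days later a pellet of 17β-estradiol (E2, 0.01 mg over 60 days), alone or with progesterone (Pg, 1.5 mg over 60 days), for 21 days, to about 8 weeks of age. No group was left without hormone. With E2 alone there were 4 wild-type and 5 C451A-ERα mice, and with E2+Pg there were 5 of either genotype. Where values of all groups follow each other, the mice with E2 alone come first, and wild-type before mutant. Mice bear the numbers of the labels.

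Most IL-1 family cytokines are made without a classical secretion signal and act through paired receptor chains that recruit the adaptor MyD88 and activate NF-κB. IL-33 is a nuclear alarmin of epithelial and other barrier cells, released upon damage and sensed through ST2, the product of Il1rl1, on mast cells, type 2 innate lymphoid cells and regulatory T cells. IL-1α and IL-1β bind IL-1R1, IL-18 binds its own receptor, and IL-1RAcP, the product of Il1rap, is the shared second chain for IL-1 and IL-33. The family also holds its own brakes: IL-1Ra, from Il1rn, occupies IL-1R1 without signaling, and IL-1R2 is a decoy that captures IL-1.

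Values are log2 signals of the brightest probe of each gene, normalized by quantiles over the 19 arrays, so that a difference of 1 corresponds to a doubled signal. A level of one probe cannot be set against that of another. Between 26473 and 31259 probes were well above background per array, with a 75th percentile signal of 248.5 to 490 and a local background of 21 to 29, and no spot was saturated. The luminal keratin gene Krt8 lay at 17.72 ± 0.06 (SD, n = 4), 17.32 ± 0.51 (n = 5), 17.52 ± 0.17 (n = 5) and 17.48 ± 0.45 (n = 5) in that order. The endothelial gene Pecam1 had mean signals of 5.83 to 6.19, whereas Ptprc, which encodes CD45, had means of 9.07 to 9.99 and was well above background on all arrays despite the gate. A few mice stood apart in the members described below. L72 (wild-type, E2) and L21 (wild-type, E2+Pg) had the lowest signals of their group in Il33, Il18, Il1rn, Il1r2 and Il1rl1, and L18 (C451A-ERα, E2+Pg) had the highest Il33, Il18 and Il1r2 signals of its group, as L4 did in C451A-ERα mice with E2.

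The probes that lie mainly in coding sequence are shown because they tell which part of each transcript was measured. The second Il33 probe and a probe of the decoy receptor gene Il1r2 span an intron and thus read spliced transcripts, and the others end at the 3′ end of the coding sequence. All are 60 bases, 5′ to 3′, with mm9 positions of the array design on the plus strand.
Il33, A_55_P2614900, chr19:30024240-30026507: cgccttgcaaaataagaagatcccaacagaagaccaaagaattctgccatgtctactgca
Il1r2, A_52_P417890, chr1:40168971-40171918: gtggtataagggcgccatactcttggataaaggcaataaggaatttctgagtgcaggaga
Il1r2, A_55_P2804650, chr1:40182006-40182066: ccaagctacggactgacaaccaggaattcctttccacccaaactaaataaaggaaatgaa
Il1rn, A_55_P1962400, chr2:24205094-24205153: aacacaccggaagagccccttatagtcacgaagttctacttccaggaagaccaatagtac

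Il33 gave a strong signal in LCs under E2 in both genotypes and was lowest in C451A-ERα mice given progesterone. In wild-type mice with E2, the Il33 signal was 13.40 in L67, 13.20 in L50, 12.34 in L72 and 13.42 in L52 (mean 13.09 ± 0.51, SD, n = 4). In C451A-ERα mice with E2 it was 14.08 in L4, 11.91 in L58, 13.84 in L27, 12.53 in L76 and 12.65 in L51 (13.00 ± 0.92, n = 5). The wild-type range lay within that of the mutants. In wild-type mice with E2+Pg the signal was 11.56 in L57, 11.07 in L62, 11.68 in L44, 11.97 in L47 and 9.47 in L21 (11.15 ± 0.99, n = 5). In C451A-ERα mice with E2+Pg it was 8.37 in L56, 11.03 in L18, 8.12 in L61, 7.97 in L53 and 8.95 in L63 (8.89 ± 1.25, n = 5). Of the mutant mice with E2+Pg, 4 lay below all wild-type mice, and L18 alone reached the wild-type range, whose lower end was set by L21.

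**Figure D1:**
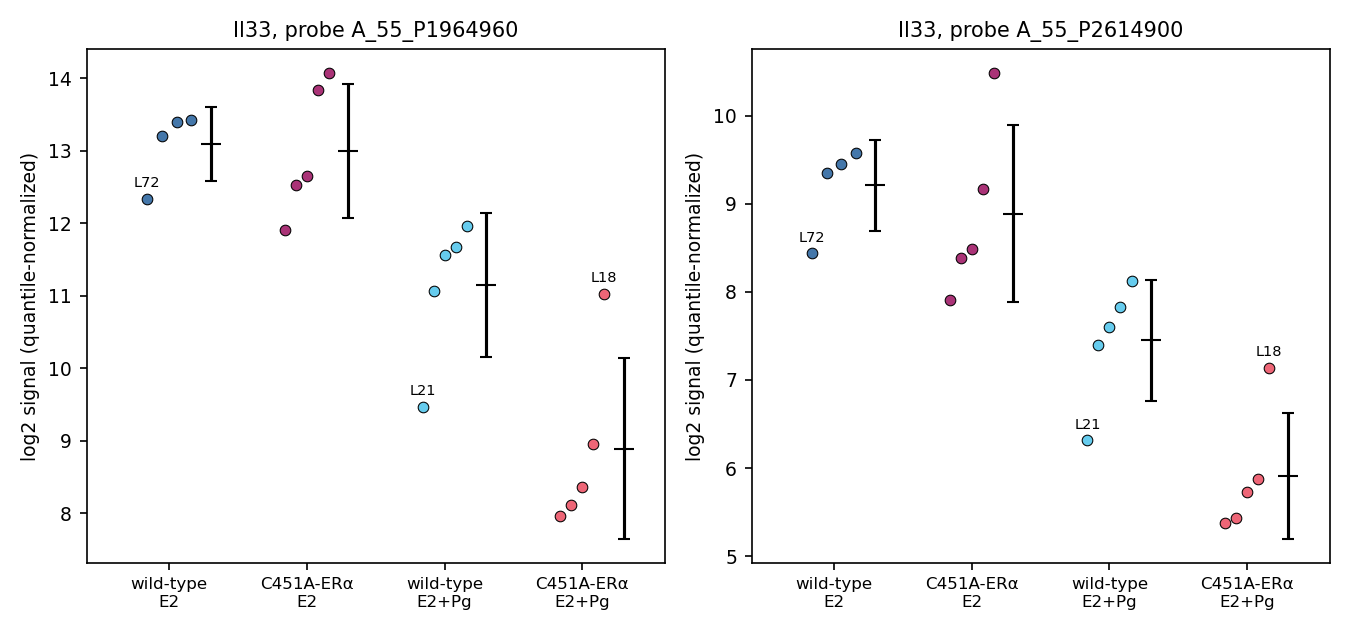
Log2 signal of both Il33 probes for each mouse (points) in the 4 groups, with the group mean and SD as bars beside the points. The first probe lies between 11.91 and 14.08 in all mice with E2 alone and between 7.97 and 11.97 in mice with E2+Pg, where L21 is the low wild-type mouse and L18 the high C451A-ERα mouse.

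These levels are a description of the pattern by which the set was chosen. The difference of E2+Pg minus E2 was −1.94 (SE 0.60) in wild-type and −4.11 (SE 0.57) in C451A-ERα, that is, a signal 3.84-fold and 17.3-fold lower. Within slides, each of which held at most 1 mouse of a group, the signal was lower with E2+Pg on 4 of 4 slides in wild-type (differences of −3.94 to −0.37) and on 5 of 5 slides in C451A-ERα (−5.72 to −0.88). The smallest difference in the mutant came from the slide of L18. The interaction, that is, the difference with progesterone in C451A-ERα minus that in wild-type, was −2.17 (SE 0.83), and no p is given since it contains the contrast that chose the gene. In order of level, wild-type and C451A-ERα with E2 were not separated beyond their spread, then followed wild-type with E2+Pg and last C451A-ERα with E2+Pg, whose ranges overlapped through L21 and L18.

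The comparison of genotypes asks whether the luminal level of the gene depends on membrane ERα. Under E2, C451A-ERα minus wild-type was −0.09 (SE 0.60, 95% interval −1.36 to 1.18) for Il33. With progesterone it was −2.26 (SE 0.57, interval −3.46 to −1.06), a 4.80-fold lower signal in the mutant. Both differences are a description with no test, since the Il33 signals with E2 and with E2+Pg entered the contrast by which the set was chosen. Neither was called at the threshold used here, an adjusted p under 0.05 with a fold above 1.5. The difference with progesterone was negative on 5 of 5 slides, from −3.99 to −0.04. Without L18 it was −2.80 and without L21 −2.68.

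The intron-spanning Il33 probe gave the same order of groups, with means of 9.21 ± 0.52 (SD, n = 4), 8.89 ± 1.0 (n = 5), 7.45 ± 0.69 (n = 5) and 5.91 ± 0.72 (n = 5). Its genotype difference was −0.32 (SE 0.47) under E2 and −1.54 (SE 0.45) under E2+Pg. This probe was not well above background in 1 of the 5 mutant mice with E2+Pg.

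Some markers of hormone-sensing LCs had, like Il33, a lower group mean with E2+Pg in the mutant. In bulk RNA, fewer cells of a type and less RNA per cell cannot be told apart. Of 14 markers of hormone-sensing LCs, all tested, 13 were lower by estimate with E2+Pg in C451A-ERα and 4 of them were called, against 1.43% of all genes called lower: Pgr, the progesterone receptor (−0.99, SE 0.25), Foxa1, a cofactor of ERα (−1.19, SE 0.24), Ly6a, encoding Sca-1 (−1.88, SE 0.40), and Prom1 (−1.16, SE 0.22). In wild-type 11 of 14 were lower by estimate and none was called. The summed signal of this list was 132438 to 223414 in wild-type with E2, 165266 to 265939 in C451A-ERα with E2, 91484 to 132022 in wild-type with E2+Pg and 59946 to 173926 in C451A-ERα with E2+Pg. None of its 14 genes was called between genotypes under E2+Pg, where its median difference was 0.11. Esr1, which encodes ERα, had means of 10.66 ± 0.25 (SD, n = 4), 11.17 ± 0.34 (n = 5), 9.70 ± 0.22 (n = 5) and 10.16 ± 0.95 (n = 5) in the 4 groups. The basal keratin gene Krt5 was at 11.29 ± 0.59 (n = 4) and 10.77 ± 1.14 (n = 5) with E2, and at 8.62 ± 0.74 (n = 5) and 8.86 ± 1.70 (n = 5) with E2+Pg. Krt5 does not stand for its list of 12 basal and myoepithelial markers, of which 0 were called with E2+Pg in either genotype. The median difference of this list was −0.37 in wild-type, with 8 of 12 below 0, and 0.16 in C451A-ERα, with 4 of 12 below 0. The part of these markers in the Il33 result was not tested.

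Among the other cytokines, Il18 was lower in C451A-ERα LCs under both treatments without being called, whereas Il1a was not detected above background and Il1b was dim. IL-18 is a constitutively made epithelial cytokine that is activated by caspase-1. Its signal in wild-type mice with E2 was 9.32 in L67, 9.63 in L50, 7.13 in L72 and 9.56 in L52 (8.91 ± 1.19, SD, n = 4). The mutant mice with E2 gave 8.46 in L4, 6.82 in L58, 8.34 in L27, 7.19 in L76 and 7.40 in L51 (7.64 ± 0.73, n = 5). All of the mutants lay below all wild-type mice but L72. With E2+Pg, wild-type mice had 8.34 in L57, 8.19 in L62, 8.11 in L44, 8.13 in L47 and 7.19 in L21 (7.99 ± 0.46, n = 5). The corresponding mutants had 6.51 in L56, 6.66 in L18, 6.43 in L61, 6.60 in L53 and 5.95 in L63 (6.43 ± 0.28, n = 5), and the groups did not overlap.

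For Il18 the genotype difference was −1.27 (SE 0.44, 2.41-fold lower in the mutant) under E2, with an adjusted p of 0.206 in limma and an exact permutation p of 0.119. Under E2+Pg it was −1.56 (SE 0.42, 2.95-fold lower), at an adjusted p of 0.119 in limma and an exact permutation p of 0.00794, the smallest that 5 against 5 mice allow. On all 5 slides the mutant had the lower Il18 signal under E2+Pg, by −1.83 to −1.24. Without L72 the difference under E2 was −1.86 (adjusted p 0.0034, limma) and passed the threshold, as did that under E2+Pg (−1.56, adjusted p 0.0426), which does not contain L72 but shares the spread of all groups. Without L18 it was −1.62 under E2+Pg (adjusted p 0.045, limma).

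The single Il1a probe had group means between 4.61 and 4.83, which is near the array's floor. Il1b, the cytokine of activated macrophages, was dim on its main probe, although well above background on 19 of 19 arrays, with 5.47 to 5.99 in wild-type with E2 (median 5.59), 5.60 to 6.45 in C451A-ERα with E2 (6.10), 5.76 to 6.55 in wild-type with E2+Pg (6.07) and 5.96 to 6.29 in C451A-ERα with E2+Pg (6.22). The 4 ranges overlapped. Its genotype differences were 0.36 (SE 0.19, adjusted p 0.431) under E2 and 0.03 (SE 0.18, adjusted p 0.944) under E2+Pg in limma, and its further 2 probes were well above background on 1 and 0 of 19 arrays. Of 13 macrophage and monocyte markers 10 were tested, and Fcgr1 and Ccr2 were dark on every array. The summed signal of the 10, which the brightest genes dominate, was 27560 to 40343 and 23348 to 48509 with E2, in wild-type and mutant, and 15638 to 27156 and 7451 to 18466 with E2+Pg. By gene, the median difference of E2+Pg minus E2 was 0.20 in wild-type, with 4 of 10 below 0 and 0 called. In C451A-ERα it was −0.50, with 8 of 10 below 0 and 1 called lower, against 1.43% of all genes. The part of these markers in the values of Il1b and Il18 was not tested.

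Il1rn, the receptor antagonist, separated the genotypes under E2 on its main probe without being called. The wild-type mice with E2 had 8.63 in L67, 8.25 in L50, 6.97 in L72 and 7.94 in L52 (7.95 ± 0.71, SD, n = 4), and the mutants 6.89 in L4, 6.92 in L58, 6.42 in L27, 6.73 in L76 and 6.80 in L51 (6.75 ± 0.20, n = 5). No mutant reached the lowest wild-type mouse, L72, and L58 came closest. The difference was −1.19 (SE 0.37, 2.29-fold lower), with an adjusted p of 0.161 in limma and an exact permutation p of 0.00794, and it was negative on 4 of 4 slides. Without L72 it was −1.52 (adjusted p 0.0212, limma) and passed the threshold. Under E2+Pg the Il1rn signal was 7.70 in L57, 8.24 in L62, 8.40 in L44, 8.43 in L47 and 6.95 in L21 (mean 7.94 ± 0.63, n = 5), and 6.92 in L56, 7.47 in L18, 8.71 in L61, 7.40 in L53 and 7.05 in L63 (7.51 ± 0.71, n = 5). These groups overlapped, with a difference of −0.43 (SE 0.35, adjusted p 0.489, limma). The coding probe of Il1rn was well above background in 3 of 4 wild-type and 0 of 5 mutant mice with E2, with means of 5.49 ± 0.31 (n = 4) and 4.94 ± 0.19 (n = 5). On this probe the genotypes overlapped, since L72 at 5.04 lay below the mutants L76 at 5.07 and L51 at 5.08.

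**Figure D2:**
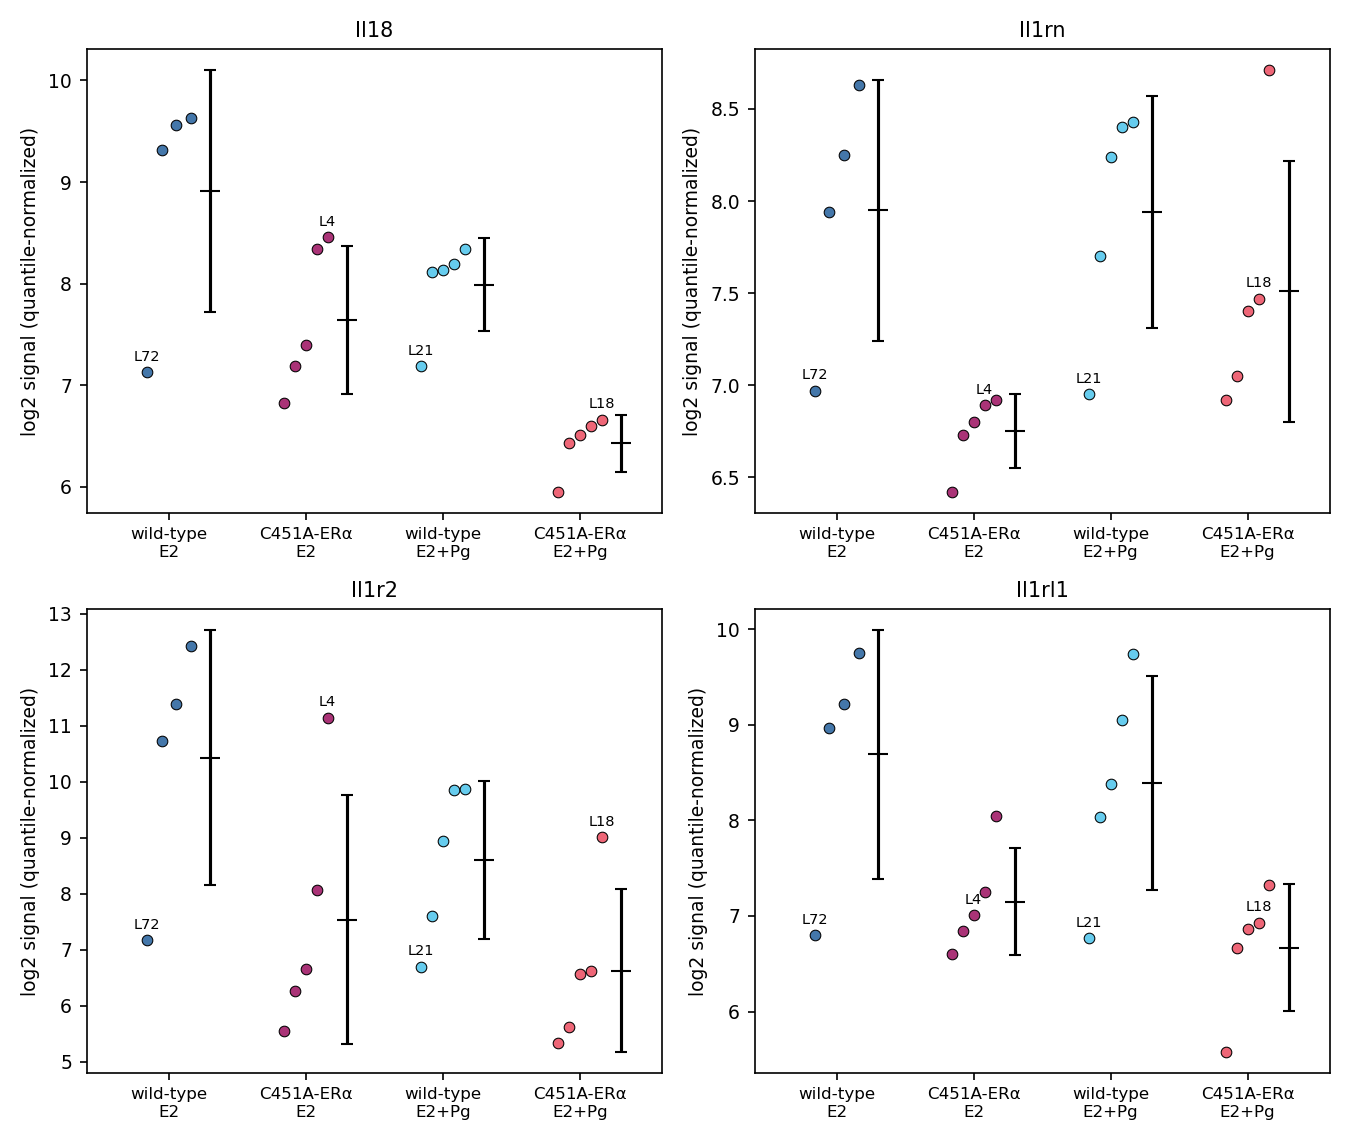
Log2 signal of Il18, Il1rn, Il1r2 and Il1rl1 for each mouse (points) in the 4 groups, with the group mean and SD as bars; each panel has its own vertical axis. L72 and L21 are the lowest wild-type mice in all 4 panels, L4 and L18 are the highest Il1r2 mice of their groups, and Il18 does not overlap between genotypes under E2+Pg.

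The chains of the IL-1 receptor, Il1r1 and Il1rap, had genotype differences of −0.25 to 0.44, and neither was called. Il1r1, the receptor that transmits IL-1 signals, was 8.66 to 8.79 in wild-type with E2 (8.74 ± 0.06, SD, n = 4), 8.46 to 9.20 in C451A-ERα with E2 (8.91 ± 0.29, n = 5), 7.97 to 8.51 in wild-type with E2+Pg (8.25 ± 0.20, n = 5) and 7.61 to 8.55 in C451A-ERα with E2+Pg (8.20 ± 0.38, n = 5). Its genotype differences were 0.18 (SE 0.18, interval −0.20 to 0.56) under E2 and −0.04 (SE 0.17, interval −0.40 to 0.32) under E2+Pg, with adjusted p of 0.716 and 0.911 in limma. The common chain gene Il1rap was 8.29 to 9.02 (8.63 ± 0.30, n = 4), 7.70 to 8.86 (8.38 ± 0.54, n = 5), 8.71 to 9.20 (9.0 ± 0.19, n = 5) and 8.84 to 10.15 (9.44 ± 0.48, n = 5) in the same order. Its genotype differences were −0.25 (SE 0.26) and 0.44 (SE 0.24), with adjusted p of 0.714 and 0.318 in limma. Its main probe reads the transcript of the membrane protein, and a probe for the shorter transcript that encodes a soluble form had means of 5.54 to 5.95.

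The decoy receptor gene Il1r2 had the widest spread of the members. With E2 it was 12.42 in L67, 10.73 in L50, 7.17 in L72 and 11.40 in L52 among wild-type mice (10.43 ± 2.28, SD, n = 4), and 11.15 in L4, 5.55 in L58, 8.07 in L27, 6.27 in L76 and 6.65 in L51 among mutants (7.54 ± 2.22, n = 5). L72 and L4 thus each lay within the range of the opposite genotype. With E2+Pg it was 9.88 in L57, 8.94 in L62, 7.61 in L44, 9.86 in L47 and 6.70 in L21 (8.60 ± 1.41, n = 5), and 5.63 in L56, 9.01 in L18, 6.63 in L61, 5.33 in L53 and 6.56 in L63 (6.63 ± 1.45, n = 5). The difference was −2.89 (SE 1.14, 7.44-fold lower in the mutant) under E2, with an adjusted p of 0.266 in limma and an exact permutation p of 0.0873, and −1.97 (SE 1.07) under E2+Pg, at an adjusted p of 0.311 in limma and an exact permutation p of 0.0635. Without L72 the former was −3.98 (adjusted p 0.04, limma) and passed the threshold. The intron-spanning probe gave −2.34 (SE 0.88) and −1.29 (SE 0.83), in the same direction.

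Il1rl1 encodes ST2, the receptor for IL-33, as a membrane form and a shorter soluble form that traps the cytokine. Its main probe, for the membrane form, gave 8.97 in L67, 9.75 in L50, 6.80 in L72 and 9.22 in L52 among wild-type mice with E2 (8.69 ± 1.30, SD, n = 4), and 7.01 in L4, 6.60 in L58, 6.84 in L27, 7.25 in L76 and 8.05 in L51 among mutants (7.15 ± 0.56, n = 5). With E2+Pg, wild-type mice had 9.74 in L57, 8.04 in L62, 8.38 in L44, 9.05 in L47 and 6.77 in L21 (8.39 ± 1.12, n = 5), and mutants 6.67 in L56, 6.93 in L18, 6.86 in L61, 7.32 in L53 and 5.58 in L63 (6.67 ± 0.66, n = 5). Under both treatments all wild-type mice but L72 or L21 lay above every mutant. The genotype difference was −1.54 (SE 0.58, 2.90-fold lower) under E2, with an adjusted p of 0.24 in limma and an exact permutation p of 0.0794. Under E2+Pg it was −1.72 (SE 0.54, 3.29-fold lower), at an adjusted p of 0.169 in limma and an exact permutation p of 0.0317, and it was negative on 5 of 5 slides. Without L72 the difference under E2 was −2.17 (adjusted p 0.0207, limma) and passed the threshold.

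The probe for the soluble form of ST2 had means of 8.03 ± 0.70 (SD, n = 4), 6.68 ± 0.44 (n = 5), 7.38 ± 0.65 (n = 5) and 6.67 ± 0.75 (n = 5). Its genotype difference was −1.35 (SE 0.40) under E2 and −0.72 (SE 0.38) under E2+Pg, with adjusted p of 0.169 and 0.285 in limma. Both forms were therefore lower in mutant mice by estimate, and neither was called. ST2 is also made by mast cells and type 2 innate lymphoid cells. Of 13 markers of these cells, 7 were tested and 0 were called in either genotype comparison. The median genotype difference of the 7 was −0.18 under E2, with 5 of 7 below 0, and 0.03 under E2+Pg, with 3 of 7 below 0. Their summed signal was 1509 to 2023, 1617 to 2341, 1359 to 2613 and 2482 to 3150 in the 4 groups. On no array was Ms4a2, the mast cell receptor chain for IgE, well above background. The part of these cells in the Il1rl1 values was not tested.

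**Figure D3:**
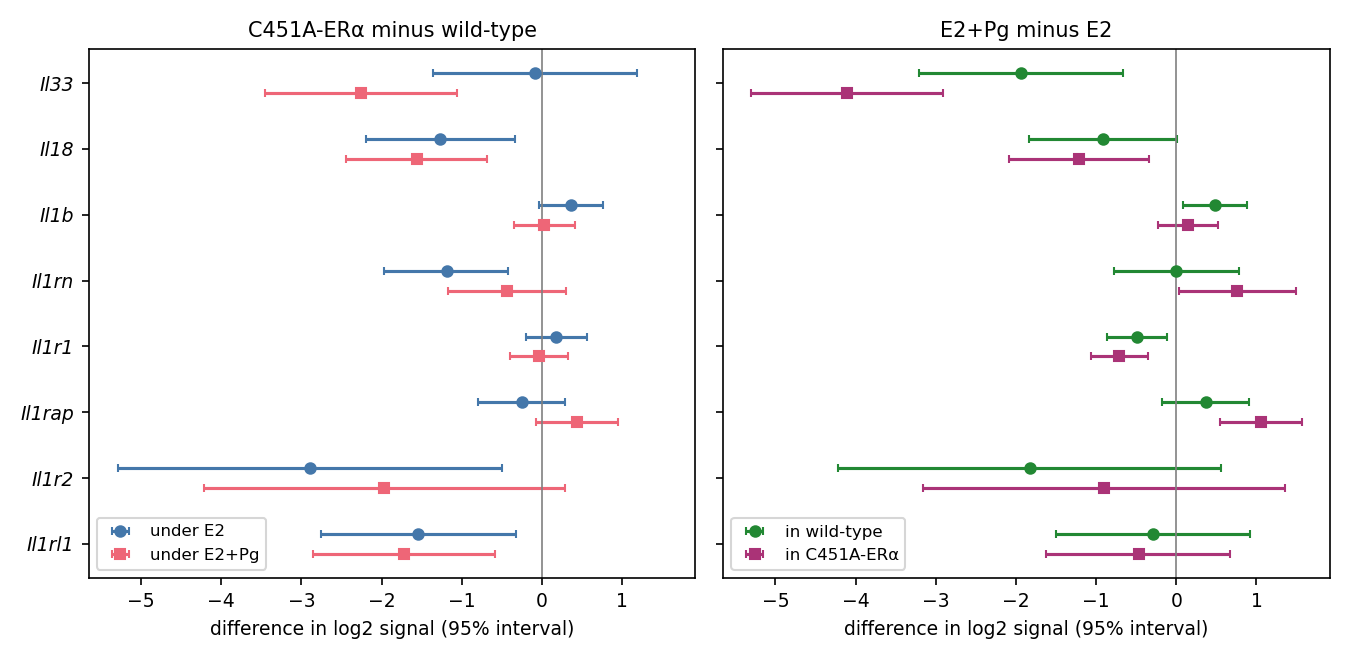
Differences in log2 signal for the 8 members tested, with 95% intervals from limma, for C451A-ERα minus wild-type (left) and E2+Pg minus E2 (right). Between genotypes the intervals of Il18, Il1rn, Il1r2 and Il1rl1 lie below 0 under E2, and those of Il33, Il18 and Il1rl1 under E2+Pg. They are not adjusted for the number of genes, and 13.6% and 18.3% of all genes had an unadjusted p under 0.05. The Il33 values under both treatments entered the contrast that chose the set, and the right panel holds the Il33 differences of −1.94 and −4.11.

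In sum over the family, none of the 8 members tested was called between genotypes under E2 or under E2+Pg, where 0.0288% and 0.00481% of all 20804 genes were called by limma. At an unadjusted p under 0.05 there were 4 members under E2 (Il18, Il1r2, Il1rl1 and Il1rn), against 13.6% of all genes, and 3 under E2+Pg (Il18, Il1rl1 and Il33, of which the last rests on mice that chose the set), against 18.3%. Genotypes did not overlap in 1 member under E2, Il1rn, against 3.51% of all genes, and in 1 under E2+Pg, Il18, against 2.61%. Of the 8 members 6 were lower in the mutant under each treatment, with a median of −0.72 under E2 and −1.0 under E2+Pg, where the medians over all genes were 0.03 and −0.03. Under both treatments the count and the median include Il33, whose values entered the contrast that chose the set. Epidermis markers showed a similar order of genotypes. Of 9 such genes 6 were tested and 0 called between genotypes, Dsg1a and Dsc1 were well above background on 0 arrays, and under E2 6 of 6 were lower in the mutant by estimate (median −0.57), under E2+Pg 4 of 6 (median −0.39). Their summed signal was 618 to 1506 and 480 to 956 with E2, and 619 to 806 and 432 to 1751 with E2+Pg. Their mean deviation from the mean over 19 arrays, in log2 units, was 0.16 to 0.68 in wild-type and −0.44 to −0.09 in mutant mice with E2, without overlap. With E2+Pg it was 0.21 to 0.46 in wild-type mice other than L21 (−0.39) and −0.59 to −0.25 in mutants other than L18 (0.53). Markers of luminal progenitors went the other way with E2+Pg, at −0.38 to 0.08 in wild-type and 0.13 to 0.41 in mutant mice, without overlap. With E2 they overlapped, at −0.55 to 0.12 and −0.43 to 0.34. The part of these markers in the members' values was not tested. The genotype comparisons share no mice. With array weights in limma 4 members were called under E2 (Il18, Il1r2, Il1rl1 and Il1rn). Under E2+Pg 4 were called (Il18, Il1r2, Il1rl1 and Il33, of which the last rests on mice that chose the set). The share of all genes called with these weights is not given here, so these counts cannot be set against the shares above. The interaction was called in 0.0% of all genes and in no member, and 9.36% of all genes had an unadjusted p under 0.05. Il33 is left out of this last count, since its interaction contains the contrast that chose it. None of the 7 further members had such a p.

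For progesterone, whose contrast chose the set, the counts are given without a reading. In wild-type, no member passed the threshold, against 1.31% of all genes (0.731% lower and 0.582% higher), and the treatments did not overlap in Il33 and Il1r1, against 8.64% of all genes. In C451A-ERα, Il33 and Il1r1 passed it as lower and Il1rap as higher, against 2.45% of all genes (1.43% lower and 1.02% higher), and the treatments did not overlap in Il33 and Il18, against 5.02%. The difference of Il1r1 was −0.49 (SE 0.18) in wild-type and −0.71 (SE 0.17) in the mutant, and that of Il1rap was 0.37 (SE 0.26) and 1.06 (SE 0.24). Il18 was −0.92 (SE 0.44) and −1.21 (SE 0.42), Il1rl1 −0.29 (SE 0.58) and −0.47 (SE 0.54), and Il1r2 −1.83 (SE 1.14) and −0.90 (SE 1.07). The antagonist Il1rn stood at 0.00 (SE 0.37) and 0.76 (SE 0.35), and Il1b at 0.48 (SE 0.19) and 0.14 (SE 0.18). With the slide as a block, only Il33 passed in C451A-ERα. The Il1r1 call in the mutant was also lost without any of 6 mice (L18, L27, L51, L53, L61 or L76), at −0.731 to −0.56. That of Il1rap was lost without L4, L27, L61 or L63 (0.884 to 1.05), with the mean over its probes (0.689) and on its soluble-form probe (0.318).

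**Figure D4:**
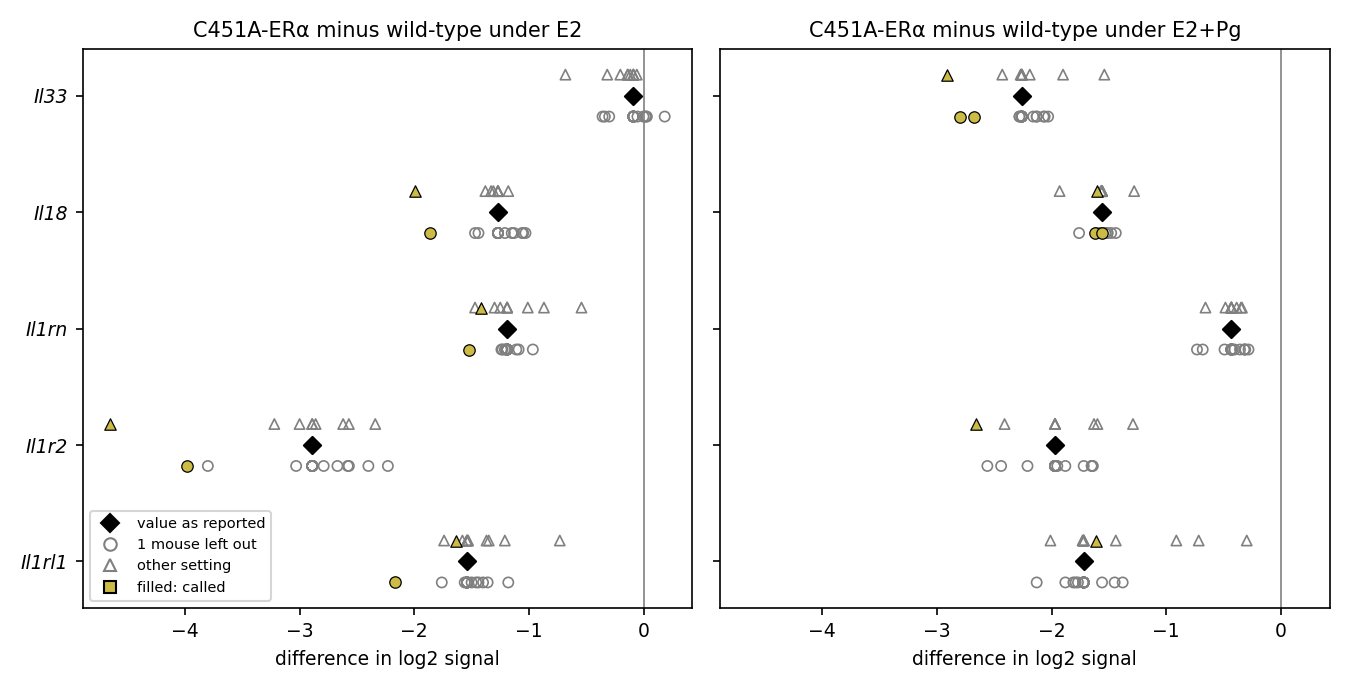
Genotype difference in log2 signal of 5 members as reported (diamonds), with 1 mouse left out (circles) and under the other settings (triangles), under E2 (left) and E2+Pg (right); filled symbols passed the threshold. The estimates of Il18, Il1rn, Il1r2 and Il1rl1 stay below 0 in both panels, and those of Il33 lie between −0.682 and 0.184 under E2 and between −2.91 and −1.54 under E2+Pg. Filled symbols of Il33 under E2+Pg are a description, since these values chose the set.

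The mice that stood apart also differed in cell markers, each given as the mean deviation of a list, in log2 units, from its mean over 19 arrays. L21 had 1.67 for leukocyte and 1.62 for lymphocyte markers, where the other wild-type mice with E2+Pg had −0.41 to 0.19 and −0.26 to 0.19. Its hormone-sensing markers were at 0.06, above the −0.63 to −0.38 of the others, although its Il33 signal was the lowest of the group, and its epidermis markers were below the others, as given above. L18 had 0.80 for basal and myoepithelial markers, where the other mutant mice with E2+Pg had −0.50 to −0.08, and −0.39 for luminal markers, where they had 0.04 to 0.27, and its epidermis markers were above theirs. The hormone-sensing markers of L18 were at −0.83, below the −0.71 to −0.05 of the others, although its Il33 signal was the highest of the group. L72 had 0.67 for hormone-sensing markers, above the 0.19 to 0.38 of its group, and 0.15 for basal ones, within it. L4 had 0.46 for basal markers, above the −0.29 to 0.03 of its group, and 0.78 for fibroblast markers, above the −0.86 to 0.22 of its group. The part of these differences in the members' values was not tested.

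The wider pathway was read from lists of named genes. Of 5 further family cytokines (the IL-36 group and Il1f10) none was tested, and 4 were well above background on 0 arrays. Of 7 further receptors and decoys, 5 were tested and 0 were called between genotypes. Il18r1, the ligand-binding chain of the IL-18 receptor, fell with E2+Pg in C451A-ERα by 1.60 on the log2 scale (SE 0.39, adjusted p 0.0339, limma), from 10.68 to 9.08, and was −1.42 (SE 0.41, adjusted p 0.0929, limma) in wild-type, from 10.81 to 9.39. Of 22 inflammasome and cytokine-processing genes, 15 were tested. Aim2, a cytosolic DNA sensor, fell with E2+Pg in both genotypes, by 1.18 (SE 0.25) in wild-type and 1.24 (SE 0.24) in the mutant on the log2 scale, with adjusted p of 0.0274 and 0.00937 in limma. Capn1, a calpain that can trim IL-1 family precursors, fell by 0.60 in the mutant (SE 0.10, adjusted p 0.00367, limma) and was at −0.39 in wild-type (SE 0.10, adjusted p 0.0702, limma). Neither Nlrp3 nor Nlrc4 was well above background anywhere. Neither of these lists had a gene called between genotypes, and their median genotype differences were 0.00 and −0.21 under E2 and −0.05 and −0.25 under E2+Pg.

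The intracellular pathway was read only through the RNA of listed genes, which does not show the activity of their proteins. All 25 MyD88 adaptor and kinase genes and all 16 NF-κB subunits and inhibitors were tested, and 0 were called in any comparison. The NF-κB list had a median genotype difference of −0.43 under E2, with 13 of 16 below 0, and of 0.35 under E2+Pg, with 1 of 16 below 0. The 26 genes commonly induced by IL-1 in epithelia had medians of −0.93 (24 of 26 below 0) and 0.36 (9 of 26 below 0), beside medians of 0.03 and −0.03 over all genes. None of them was called between genotypes. The summed signal of this last list was 88023 to 300685 in wild-type with E2, 52714 to 132965 in C451A-ERα with E2, 65445 to 105971 in wild-type with E2+Pg and 62750 to 199689 in C451A-ERα with E2+Pg, so that the groups overlapped. Csf2, which encodes GM-CSF, was the only gene of the list called with progesterone and fell in wild-type by 2.09 on the log2 scale (SE 0.49, adjusted p 0.0404, limma). In C451A-ERα its difference was −0.87 (SE 0.46, adjusted p 0.33, limma). Of 14 type 2 alarmins and their receptors 10 were tested and 0 called, and neither Il13 nor Il25 was well above background in any mouse.

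Of 14 established mammary targets of progesterone, 1 was called with E2+Pg in wild-type and 2 in C451A-ERα, all higher. The list had medians of 0.13, with 5 of 14 below 0, and −0.14, with 8 of 14 below 0, in wild-type and mutant. Calca, the calcitonin gene, rose with E2+Pg by 6.23 (SE 1.0, adjusted p 0.00637, limma) in wild-type and by 3.80 (SE 0.95, adjusted p 0.0376, limma) in C451A-ERα. Fkbp5, a co-chaperone of steroid receptors, rose by 0.90 (SE 0.19, adjusted p 0.0146, limma) in the mutant and was at 0.79 (SE 0.20, adjusted p 0.0579, limma) in wild-type. Tnfsf11, which encodes RANKL, had differences of 1.80 (SE 0.53, adjusted p 0.0991, limma) and 0.69 (SE 0.50, adjusted p 0.503, limma), and was well above background in 4 of 5 wild-type and 2 of 5 mutant mice with E2+Pg. Wnt4 had differences of 0.10 (SE 0.36) and −0.59 (SE 0.34), with adjusted p of 0.909 and 0.366 in limma. Cited1, a transcriptional co-regulator, had −1.56 (SE 0.48, adjusted p 0.107, limma) and −1.33 (SE 0.45, adjusted p 0.115, limma), and Areg, which encodes amphiregulin, −1.27 (SE 0.39, adjusted p 0.107, limma) and −1.31 (SE 0.36, adjusted p 0.0583, limma).

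The genes whose signals were most like that of Il33 were ranked by Pearson's r over the 19 arrays among 20781 genes with a value on every array. The correlations are a description, since the arrays share 4 groups and the hormone difference itself. Highest were Stc2, which encodes stanniocalcin 2 (0.922), Dhx40 (0.916), Pls1, encoding plastin 1 (0.910), Adgra3 (0.906), Itih2 (0.902) and Got1, the cytosolic aspartate aminotransferase (0.902). Stc2 had means of 13.77 ± 0.34 (SD, n = 4), 13.53 ± 0.60 (n = 5), 12.69 ± 0.40 (n = 5) and 11.28 ± 0.43 (n = 5), the same order of groups as Il33. Lowest were Plcb1, a phospholipase C (−0.934), Fcgbp (−0.930), 9530053A07Rik (−0.926) and Ntng1 (−0.916), and 13 genes had an absolute r of 0.9 or more. Plcb1 had means of 5.67, 6.11, 6.49 and 7.42, in the opposite order.

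Within groups, where the hormone and genotype means are removed, the most similar genes were different: Lpar3 (0.930), Cdh2 (0.914), Gmds (0.913), Ankrd34c (0.898), Epdr1 (0.886) and Dapl1 (0.882), over the same 19 arrays. Cdh2 had an r of 0.067 over all arrays. Among the members, Il1r2 followed Il33 within groups at an r of 0.80 and over all arrays at 0.650, Il18 at 0.607 and 0.755, and Il1rl1 at 0.379 and 0.454. Il1rap ran opposite at −0.520 and −0.803, and Il1rn was at 0.255 and −0.056. The mice that stood apart enter all of these values.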

How the data were processed

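Genotype, treatment and mouse number came from the labels, and slides from the array identifiers. The labels do not say which mice were littermates, and p-values measure the spread between these mice. Per spot, the deposited files give the signal intensity that the authors extracted from the scans with Agilent Feature Extraction 10.10.1.1. A deposited table of log2 values, which the authors filtered, batch-corrected and quantile-normalized per the methods, served as an alternative.

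Control spots and outlier spots were dropped. The log2 median signals were quantile-normalized (limma 3.58.1, R 4.3.3). A probe was kept if well above background on 4 or more of 19 arrays (31842 probes), and each gene was represented by its brightest such probe (20804 genes). Of 56605 probes, 32994 were named through the reference by accession, 895 by another accession, and 22716 kept the file's name. limma was fitted with 4 group means (15 residual degrees of freedom, prior 3) and Benjamini-Hochberg adjustment over all genes. Calls required both an adjusted p below 0.05 and more than a 1.5-fold difference. Tests were two-sided, and the fit was tested on simulated data. For genotype comparisons of members, mean differences were also tested by exact permutation, which is not reported for Il33.

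The members and all lists were chosen with earlier results of these data known. Named genes were all members, called list genes (the 3 largest per direction for progesterone), Tnfsf11, Wnt4, 7 cell markers, and genes ranked by r with Il33. Foxa1, Ly6a, Prom1, Cited1 and Areg, and markers at background, were named after their values were seen. Alternatives changed the signal column, background correction, probe filter, probe summary, array weights, slide block, samples fitted and mice left out; fitting each probe on its own was added after seeing the data.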

Additional observations from a re-analysis of the deposited data

Results flagged for a closer look

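Dixon's gap test was run on 56 groups of values, the 14 kept probes of the members in 4 groups each, and marked 3 mice as standing apart; chance alone marks about 5% of groups. In C451A-ERα mice with E2+Pg, L18 had a signal of 7.14 on the intron-spanning Il33 probe, far above the next value, 5.88. In wild-type mice with E2, L72 had an Il18 signal of 7.13, far below the next value, 9.32. In wild-type mice with E2+Pg, L21 had an Il18 signal of 7.19, below the next value, 8.11. On the main Il33 probe L18 was not marked by this test, although it was the highest of its group.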

How the results depend on the processing

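Directions of the genotype differences of Il18, Il1rn, Il1r2 and Il1rl1, and of Il33 under E2+Pg, were negative under every setting run, and the order of the group means of the 8 members was the same with the processed signal, the normexp background correction and the authors' value table. Calls were not so stable. With array weights, which give the arrays unequal influence, 4 members were called between genotypes under E2 (Il18, Il1r2, Il1rl1 and Il1rn), 4 under E2+Pg (Il33, Il18, Il1r2 and Il1rl1) and 3 with progesterone in wild-type, and with the slide as a block 1 was called with progesterone in C451A-ERα. Leaving out 1 mouse at a time gave 0 to 4 members called between genotypes under E2 (4 without L72), 0 to 2 under E2+Pg (2 without L18, 1 without L21 or L72), 0 to 1 with progesterone in wild-type (1 without L18 or L72) and 1 to 4 with progesterone in C451A-ERα (1 without L27 or L61). The shares of all genes called under these settings are not given here, so the counts cannot be read as a result about the members. The array weights were 0.24 for L4, 0.299 for L18, 0.486 for L21 and 0.602 for L72, whereas L51 had 3.45. Under E2+Pg the counts with array weights and without L18 or L21 include Il33. Its values there chose the set, so its calls are a description and no test. The cause of the changes in calls was not tested. Signs that turned belonged to small differences. With array weights the interaction was 0.398 for Il18 and 0.0362 for Il1rl1, and Il1rap was 0.0333 between genotypes under E2. The interaction of Il1rl1 was 0.295 with the mean over probes, 0.635 for the soluble form's probe and 0.433 for the third probe, which also gave 0.185 with progesterone in C451A-ERα, and the soluble Il1rap probe gave −0.134 with progesterone in wild-type. Over mice left out, Il33 between genotypes under E2 was −0.358 to 0.184, Il1b under E2+Pg −0.0657 to 0.131 and Il1r1 under E2+Pg −0.127 to 0.109. With progesterone in wild-type Il1rn was −0.329 to 0.247 and Il1rl1 −0.922 to 0.114, and the interaction was −0.537 to 0.297 for Il18 and −0.588 to 0.448 for Il1rl1. The labels give no replicate numbers that groups share, so mice were paired only through the slide, as a block and in the differences within slides. The number of arrays limits the precision, and the dimmer probes of Il1b, Il1rap, Il1rl1 and Il1rn lie near background.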
